A study of Mus musculus with 4 samples.

Results

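Atf4 and 9 genes of the integrated stress response, Atf5, Ddit3, Ddit4, Asns, Trib3, Chac1, Sesn2, Psat1 and Slc7a11, were followed in RNA-seq libraries of mouse bone marrow. These 10 genes were chosen by name as Atf4 and genes known as its relatives or targets, out of the 55401 gene identifiers in the deposited tables. All 10 averaged 0.1 FPKM or more and were among the 18596 genes tested. The 4 libraries came from tibial marrow of male WT C57/B6 mice that were fed an HFD (high-fat diet) from 8 weeks of age. In the Ob group, 2 mice remained on the diet without intervention. In the Ob + Exe group, 2 mice under the same diet also ran on a treadmill at moderate intensity for 12 weeks. The obesity model is shared by both groups, and lean mice are not analysed here. The comparison asks what exercise changed in the marrow of obese mice.

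The labels call the material bone marrow but also name mesenchymal stem cells and fibroblasts. Erythroid markers summed to between 54613 and 81737 scaled FPKM and neutrophil markers to between 28156 and 65560, with Hbb-bs and S100a8 in the lead. The 12 mesenchymal and fibroblast markers summed to between 122 and 180, most of it Cxcl12, so the values were read as those of whole marrow. In such bulk samples fewer cells of a type and less RNA per cell cannot be told apart.

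The integrated stress response is a shared answer of cells to lack of amino acids, lack of heme, unfolded proteins in the endoplasmic reticulum and viral RNA. A different kinase senses each of these and phosphorylates the initiation factor eIF2, which slows the synthesis of most proteins but raises that of Atf4, because short reading frames ahead of its coding sequence hold translation back in unstressed cells. Atf4 protein then switches on genes for amino acid supply, redox balance and, under lasting stress, cell death. In bone, Atf4 is known as a factor of osteoblast differentiation, and in the erythroid cells that fill much of the marrow the heme-sensing kinase Eif2ak1 acts through the same route. RNA-seq measures the Atf4 mRNA and the mRNAs of its targets, not the Atf4 protein.

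Atf4 binds DNA together with C/EBP proteins at a composite element, and the core letters TGATGNAA of that element were searched on both strands of the RefSeq promoter windows (GRCm38.p6), which run from 250 bases before each start site to 50 bases after it. All 10 genes had an entry. A match was found for 4 of them, Slc7a11, Chac1, Trib3 and Asns, against 3.97% of the 32851 windows of the same length and 2.86% of the tested genes with an entry. The 10 genes were chosen as Atf4 and its known relatives or targets. A higher share of matches can follow from that choice alone, so these shares are no test of the element. The 4 genes with a match were also the 4 genes with the highest log2 fold changes in the fit to all 4 libraries. Their stretches are therefore printed here. Capitals mark the match, which reads TTNCATCA where it lies on the opposite strand, and each stretch is given 5′ to 3′ on the strand of its gene.
Slc7a11, chr3:50443614-50443863, minus strand, the 250 bases before the start: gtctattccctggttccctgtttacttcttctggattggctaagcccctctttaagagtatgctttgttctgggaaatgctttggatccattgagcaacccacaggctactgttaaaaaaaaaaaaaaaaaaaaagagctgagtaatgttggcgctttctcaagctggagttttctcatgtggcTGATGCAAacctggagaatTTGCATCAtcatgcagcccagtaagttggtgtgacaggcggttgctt
Chac1, chr2:119351038-119351067, plus strand: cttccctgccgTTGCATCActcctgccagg
Trib3, chr2:152344028-152344057, minus strand: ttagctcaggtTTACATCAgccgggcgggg
Asns, chr6:7693214-7693243, minus strand: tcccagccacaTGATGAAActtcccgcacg

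Slc7a11 held 2 matches in opposite orientation, whose first bases lay 66 and 47 bases before the RefSeq start. In Chac1 the match began 193 bases before the start and in Asns 23 bases before it. In Trib3 it began at the transcribed base 15 of RefSeq. The gene starts in the deposited tables differ slightly from those of RefSeq, so that the Trib3 match began 14 bases ahead of the annotated gene there and the Asns match 22 bases inside it. No match in a window of this length says only that these letters were not found there, and a match was not shown to be a bound site.

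None of the 10 genes passed the thresholds of the study, an unadjusted p under 0.05 together with a log2 fold change beyond 1, in limma's moderated test on log2(FPKM + 0.1). Over all genes tested, 3.71% passed them, 2.73% as lower and 0.979% as higher in Ob + Exe. With limma voom on read equivalents the number called was also 0, where 455 of the 18596 genes tested were called. None of the 10 genes had an unadjusted p under 0.05 in either test. Over all genes tested the share was 5.02% in limma, and in limma voom 712 of 18596 genes had such a p. The smallest p among them was 0.0723, for Slc7a11, and their adjusted p values lay between 0.96 and 0.9998 (limma, Benjamini-Hochberg over all genes tested). The log2 fold change was above 0 for 6 genes and below 0 for 4 genes, with a median of 0.05 against -0.02 over all genes tested. The median size of the change was 0.28 in the 10 genes and 0.31 in all genes tested. In 4 of the 10 genes the 2 Ob + Exe libraries both lay on 1 side of the 2 Ob libraries, which was also the case for 32.7% of all genes tested. Ddit4 and Psat1 were lower in both Ob + Exe libraries, as were 18.7% of all genes, and Trib3 and Slc7a11 were higher in both, as were 14% of all genes. The number of mice limits what this comparison can show, since the smallest two-sided p that an exact permutation test allows with 2 against 2 libraries is 0.333. The labels do not say more of the origin of the replicates than their number, so p values measure the spread between these samples.

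The 10 genes differed widely in abundance. By mean deposited FPKM, which is a level per transcript length, Atf4 was the most abundant at 146, above 98.2% of the genes tested. It was followed by Asns at 35.7, Ddit3 at 27.5, Psat1 at 16.4, Atf5 at 9.08, Sesn2 at 5.69 and Ddit4 at 4.34. Slc7a11 at 1.72, Trib3 at 1.47 and Chac1 at 1.34 were the least abundant. Atf4 stood apart from Asns, Ddit3 from Psat1 and Psat1 from Atf5 in all 4 libraries without overlap of the ranges. The ranges of Asns and Ddit3 overlapped, as did those of each pair of neighbours from Atf5 down to Chac1, so these neighbours did not differ beyond their spread over the 4 libraries. Within each of the 4 libraries, however, Atf5 was above Sesn2 and Sesn2 above Ddit4.

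**Figure D1:**
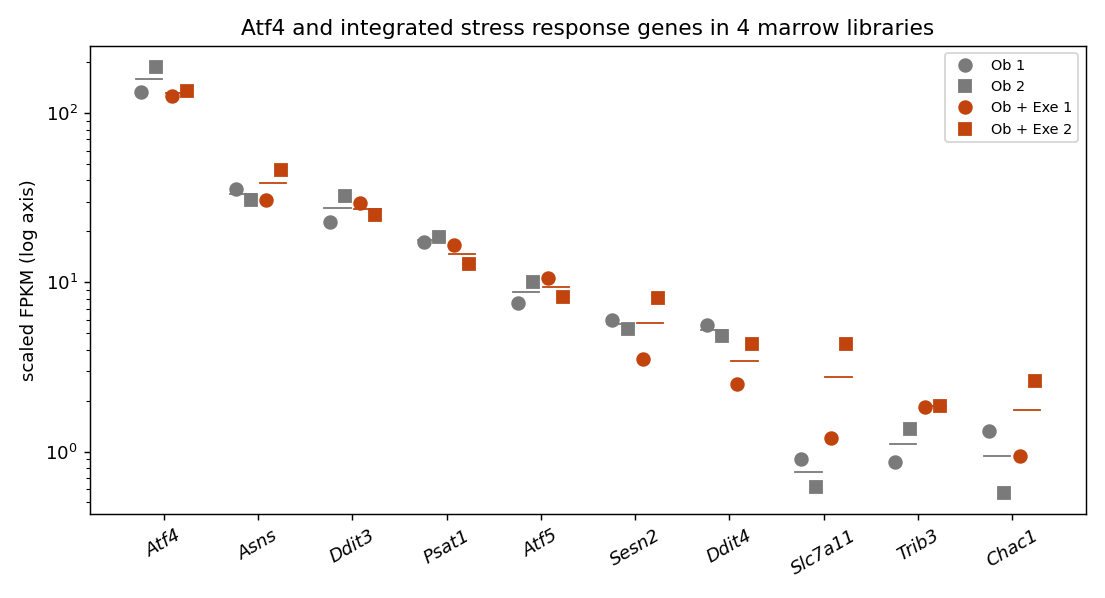
Scaled FPKM (log axis) of the 10 genes in each of the 4 libraries, in the order of their mean. Circles are replicate 1 and squares replicate 2 of each group, and the short lines are the group means. Atf4 lies above 127 in every library, and for 6 of the 10 genes the grey Ob and the orange Ob + Exe points overlap.

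Atf4, the factor at the centre of the response (ENSMUSG00000042406.8), spans 80255184 to 80257541 on chromosome 15 (GRCm38, plus strand), and no other annotated gene overlaps it. Its scaled FPKM was 133 and 187 without exercise against 127 and 135 with it. The mean was 160.1 ± 37.9 (SD, n = 2) for the Ob mice against 131 ± 5.32 (SD, n = 2) for the exercised mice. One library, Ob replicate 2, was high, and the other 3 were close to each other, so the groups overlapped. The log2 fold change was -0.27 with a standard error of 0.239 (limma, adjusted p = 0.96), and its 95% interval ran from -0.86 to 0.32. An exact permutation test over the libraries gave a two-sided p of 0.667. In the FPKM as deposited, without scaling between libraries, the values were 137 and 193 in Ob against 126 and 128 in Ob + Exe, so that Atf4 was then lower in both Ob + Exe libraries. Without Ob replicate 2 the log2 fold change was -0.04. These values rest on 15827, 21716, 13097 and 12863 read equivalents, the coverage times the transcript length divided by the read length, in the order in which the libraries are given. By quantitative PCR of bone marrow from more mice, the study reported Atf4 as significantly higher after exercise. Why the 2 measures differ in direction was not tested.

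StringTie assigned most of the Atf4 signal to a transcript of 3 exons, ENSMUST00000109605.4, which held 93.6% and 91.2% of the gene's FPKM in Ob against 86.2% and 90.2% in Ob + Exe. A transcript of 1 exon, ENSMUST00000230434.1, took nearly all of the rest, with a scaled FPKM of 8.496 and 16.5 in Ob against 17.5 and 11.4 in Ob + Exe. The same transcript thus led in all 4 libraries. Among the 12408 other genes that averaged 1 FPKM or more, the profiles nearest to that of Atf4 over the 4 libraries were those of Prpf38b, a splicing factor, Dusp5, a phosphatase of MAP kinases, and Zfp869, a zinc finger gene, at Euclidean distances of 0.0675, 0.0733 and 0.0734 on the centred log2 scale. The nearest of the other 9 genes was Ddit3, at a distance of 0.352 and rank 976, while Slc7a11 was the farthest at 2.25 and rank 12055. With 4 libraries such a ranking is a description only.

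Atf5 and Ddit3 encode bZIP factors of the same response. Atf5, which like Atf4 is held under translational control and is known in the mitochondrial stress response, had a scaled FPKM of 7.54 and 10.01 in Ob against 10.6 and 8.16 in Ob + Exe. Its means of 8.77 ± 1.74 (SD, n = 2) and 9.36 ± 1.70 (SD, n = 2) differed by less than the spread within each group, and the log2 fold change was 0.10 with a standard error of 0.283. Ddit3, which encodes the factor CHOP that links lasting stress to cell death, had 22.8 and 32.5 in Ob against 29.5 and 25.1 in Ob + Exe. Its log2 fold change of 0.00 (0.00118, standard error 0.255) was the smallest in size of the 10, with a 95% interval from -0.63 to 0.63. For both genes Ob replicate 1 was the lowest library, and the groups overlapped.

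Both genes share sequence with neighbours on the opposite strand, and the sources used here do not state a counting by strand. Atf5, on chromosome 7 from 44812256 to 44816658, overlaps Nup62 over 571 bases and Il4i1 over 272 bases. Nup62 had a scaled FPKM of 28.9 and 30.8 in Ob against 36.0 and 24.8 in Ob + Exe. Il4i1 had a scaled FPKM of 4.94 in Ob replicate 2 and of 0.0687, 0.2425 and 0.061 in Ob replicate 1, Ob + Exe replicate 1 and Ob + Exe replicate 2. Ddit3, on chromosome 10 from 127290774 to 127296288, overlaps Mars1 over 68 bases and Gm4189 over 15 bases. Mars1 had 15.4 and 12.6 in Ob against 14.2 and 16.6 in Ob + Exe, with the lowest value in the library where Ddit3 was highest. Gm4189 had 1.56 and 3.86 in Ob against 4.51 and 2.08 in Ob + Exe, with the lowest value in the library where Ddit3 was lowest. The part of these overlaps in the values of Atf5 and Ddit3 was not tested.

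Asns, Psat1 and Slc7a11 serve the supply of amino acids. Asns encodes asparagine synthetase and lies on chromosome 6 from 7675169 to 7693254. Its scaled FPKM was 35.7 and 30.7 in Ob against 30.6 and 46.3 in Ob + Exe. Ob + Exe replicate 2 was the highest library and Ob + Exe replicate 1 the lowest, so that the 2 exercised mice enclosed both Ob mice. The log2 fold change of 0.18 (standard error 0.267) had a 95% interval from -0.48 to 0.84 and turned to -0.12 without Ob + Exe replicate 2.

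Psat1, which encodes the aminotransferase of serine synthesis, lies on chromosome 19 from 15904678 to 15947337. Its scaled FPKM was 17.3 and 18.5 in Ob against 16.7 and 12.8 in Ob + Exe, with means of 17.9 ± 0.794 (SD, n = 2) and 14.8 ± 2.74 (SD, n = 2). Each exercised mouse was below each Ob mouse, replicate 1 by little. The log2 fold change was -0.29 (standard error 0.237, 95% interval -0.88 to 0.30), and it was -0.48 without Ob + Exe replicate 1 and -0.11 without Ob + Exe replicate 2. The full-length transcript ENSMUST00000025542.9 held 82.2% and 57.7% of the gene's FPKM in Ob against 76.4% and 77.5% in Ob + Exe. The scaled FPKM of this transcript was 14.2 and 10.7 in Ob against 12.8 and 9.93 in Ob + Exe. On this transcript alone the groups thus overlapped. A short transcript of 3 exons at the end of the gene, ENSMUST00000161707.1, had a scaled FPKM of 7.80 in Ob replicate 2 and between 2.88 and 3.41 in the other 3 libraries in the same estimate.

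Slc7a11 encodes xCT, the light chain of the cystine and glutamate exchanger, whose cystine feeds the synthesis of glutathione. It had the largest log2 fold change of the 10 genes. Its scaled FPKM was 0.903 and 0.618 in Ob against 1.20 and 4.35 in Ob + Exe, from 557, 368, 589 and 2070 read equivalents. Both Ob + Exe libraries were above both Ob libraries, but Ob + Exe replicate 1 only by little, and the high mean of Ob + Exe rests on replicate 2. The mean of the Ob mice was 0.760 ± 0.202 (SD, n = 2) and that of the exercised mice 2.77 ± 2.23 (SD, n = 2). The log2 fold change was 1.5 with a standard error of 0.682 and a 95% interval from -0.19 to 3.19 (limma, adjusted p = 0.96). Without Ob + Exe replicate 2 it was 0.60, and without Ob + Exe replicate 1 it was 2.39. Slc7a11 passed the thresholds with the replicate number as a block (limma, adjusted p = 0.925), where 776 of 18596 genes did. It also passed them when protein-coding genes only were tested (limma, adjusted p = 0.989), where 364 of 13525 did. Its main transcript, ENSMUST00000029297.5, of 12 exons on chromosome 3 from 50364938 to 50443611, held between 87.0% and 97.2% of the gene's FPKM in each library. Slc3a2, which encodes the heavy chain of the same exchanger, had 49.99 and 45.6 in Ob against 49.2 and 42.2 after exercise (log2 fold change -0.07).

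**Figure D2:**
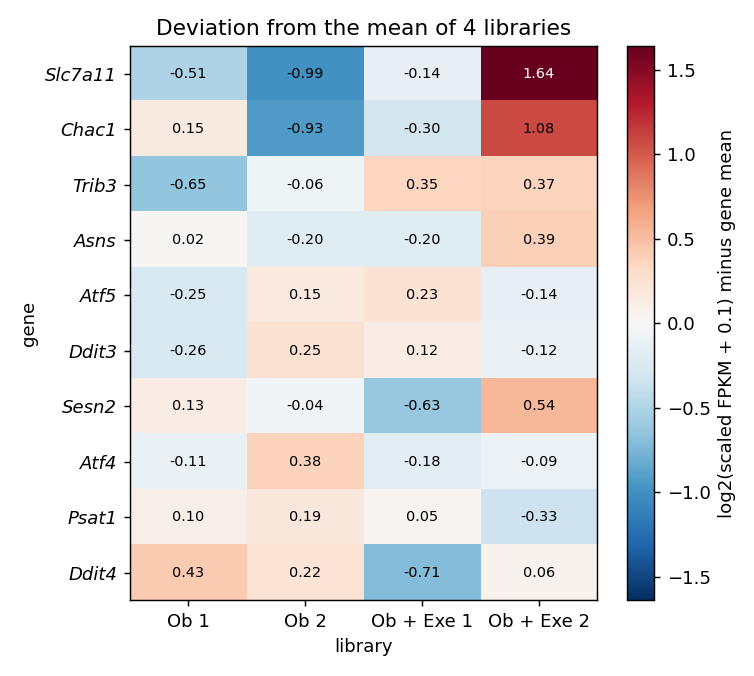
Deviation of each gene (rows) from its own mean over the 4 libraries (columns), in log2(scaled FPKM + 0.1). Rows are ordered by log2 fold change. Ob + Exe replicate 2 is the highest library for Slc7a11 (1.64), Chac1 (1.08), Sesn2 (0.54), Asns (0.39) and Trib3 (0.37), while Ob replicate 2 is the highest for Atf4 (0.38), Ddit3 (0.25) and Psat1 (0.19).

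Trib3, Chac1, Sesn2 and Ddit4 act as brakes or effectors downstream. Trib3 encodes a pseudokinase that binds Atf4 and the kinase Akt, and its gene lies on chromosome 2 from 152337422 to 152344032. Its scaled FPKM was 0.869 and 1.35 in Ob against 1.84 and 1.86 in Ob + Exe. Both Ob + Exe libraries were higher than both Ob libraries and nearly alike, with means of 1.11 ± 0.343 (SD, n = 2) and 1.85 ± 0.0178 (SD, n = 2). Trib3 thus had a log2 fold change of 0.71 (standard error 0.437, 95% interval -0.37 to 1.80; limma, adjusted p = 0.96), and with 1 library left out it stayed between 0.41 and 0.997. The level is low, with 116, 182, 217 and 201 read equivalents.

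Chac1 encodes an enzyme that breaks down glutathione, and its gene lies on chromosome 2 from 119351229 to 119354381. Its scaled FPKM was 1.32 and 0.570 in Ob against 0.935 and 2.60 in Ob + Exe, from 147, 62, 89 and 235 read equivalents. The groups overlapped, and the libraries within each group differed by more on the log2 scale, 1.08 in Ob and -1.39 for replicate 1 minus replicate 2 in Ob + Exe, than the log2 fold change of 0.78 (standard error 0.672). The fold change was 0.079 without Ob + Exe replicate 2, 0.23 without Ob replicate 2, 1.31 without Ob replicate 1 and 1.47 without Ob + Exe replicate 1. Of all genes tested, 87.1% had a smaller difference between the Ob libraries and 81.7% a smaller one between the Ob + Exe libraries.

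Sesn2 and Ddit4 both restrain the growth kinase mTORC1, Sesn2 as a sensor of leucine and Ddit4 as a gene that also answers to hypoxia and glucocorticoids. Sesn2, on chromosome 4 from 132492032 to 132510501, had a scaled FPKM of 5.99 and 5.33 in Ob against 3.52 and 8.03 in Ob + Exe. The exercised mice were the lowest and the highest of the 4, so its mean was higher in Ob + Exe (5.77 ± 3.19 against 5.66 ± 0.464, SD, n = 2 each) while the log2 fold change was below 0 at -0.09 (standard error 0.437). It was -0.68 without Ob + Exe replicate 2 and 0.50 without Ob + Exe replicate 1. Ddit4, on chromosome 10 from 59949669 to 59951834, had 5.62 and 4.84 in Ob against 2.49 and 4.33 in Ob + Exe. Both Ob + Exe libraries were lower, and the log2 fold change was -0.65 (standard error 0.37, 95% interval -1.57 to 0.27; limma, adjusted p = 0.96). Without Ob + Exe replicate 2 it was -1.04, and without Ob + Exe replicate 1 it was -0.27.

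**Figure D3:**
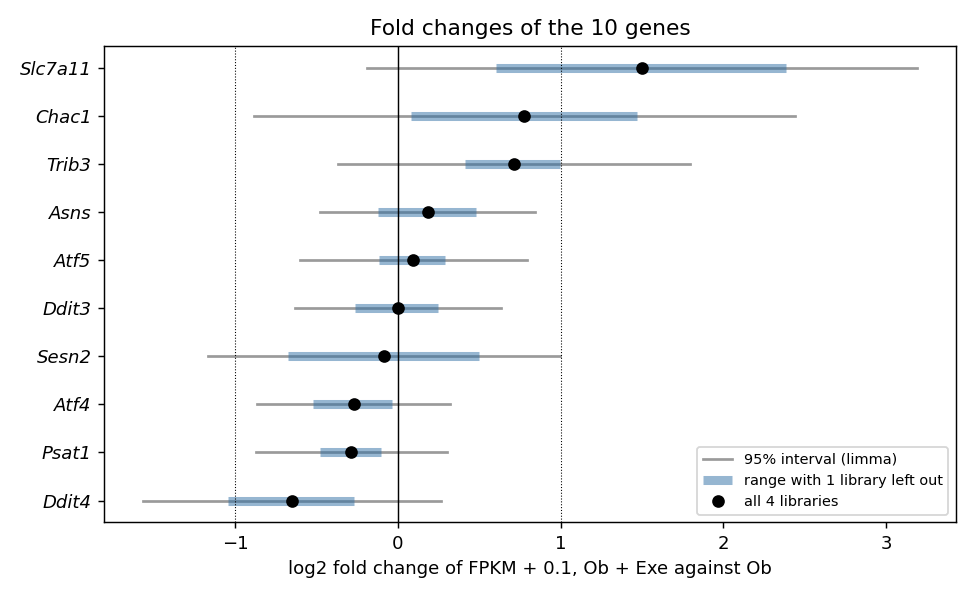
Log2 fold change of FPKM + 0.1 (Ob + Exe against Ob) for each of the 10 genes. Points are the fit to all 4 libraries, grey lines the 95% intervals of limma, blue bars the range over the 4 fits with 1 library left out, and dotted lines a log2 fold change of 1 in either direction. Every interval includes 0, and the blue bars of Asns, Atf5, Ddit3 and Sesn2 cross 0.

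The genes of the response did not move as 1 block between the libraries. Ob + Exe replicate 2 was the highest library for 5 of the 10 genes, against 28.1% of all genes tested, and these 5 included the 4 genes with a TGATGNAA match. The 4 genes with a match had log2 fold changes from 0.18 to 1.5, and the 6 genes without one from -0.65 to 0.10. This division was noticed after the values were seen and was not tested. With 1 library left out, it held only in the fit without Ob replicate 1. Without Ob + Exe replicate 2, Asns was at -0.12 and Chac1 at 0.08, below Atf5 at 0.27 and Ddit3 at 0.11, which have no match. Slc7a11, Trib3 and Chac1 were also the least abundant of the 10 genes. Over all 333 tested genes whose promoter window holds a match, the median log2 fold change was -0.00087, against -0.01 over the 11299 without, and 10 of the 333 passed the thresholds as lower and 2 as higher, together 3.60%. Among the 11299 genes without a match, 189 passed as lower and 59 as higher, together 2.20%. The difference between these shares was not tested. The 2 exercised mice differed more than the 2 Ob mice in 6 of the 10 genes, which was also so in 64.8% of all genes tested.

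The wider pathway was examined with 7 hand-written lists. Of their 102 distinct genes tested, 1 passed the thresholds, or 0.98% against 3.71% of all genes tested. The sets differ in abundance, since most of the 102 averaged more than 1 FPKM. With a minimum mean FPKM of 1, 267 of 12409 genes passed. Of the 102, 2 had an unadjusted p under 0.05 in limma, the share over all genes being 5.02%. The groups did not overlap in 49 of the 102, or 48%, against 32.7% of all genes tested. The log2 fold change was above 0 for 60 and below 0 for 42 of them, while over all genes tested it was above 0 for 8903 and below 0 for 9693. The gene past the thresholds was Fos, an immediate early bZIP factor, which had 5.82 and 6.30 in Ob against 13.6 and 16.1 after exercise, for a log2 fold change of 1.28 (standard error 0.242; limma, adjusted p = 0.943). With 1 library left out it was between 1.15 and 1.39. The other gene with an unadjusted p under 0.05, singled out after its value was seen, was Mthfd2, a mitochondrial enzyme of one-carbon metabolism and a known Atf4 target, which had 25.7 and 31.8 in Ob against 40.0 and 48.1 after exercise, for a log2 fold change of 0.62 (standard error 0.225; limma, adjusted p = 0.96). The 102 genes had a median log2 fold change of 0.10.

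**Figure D4:**
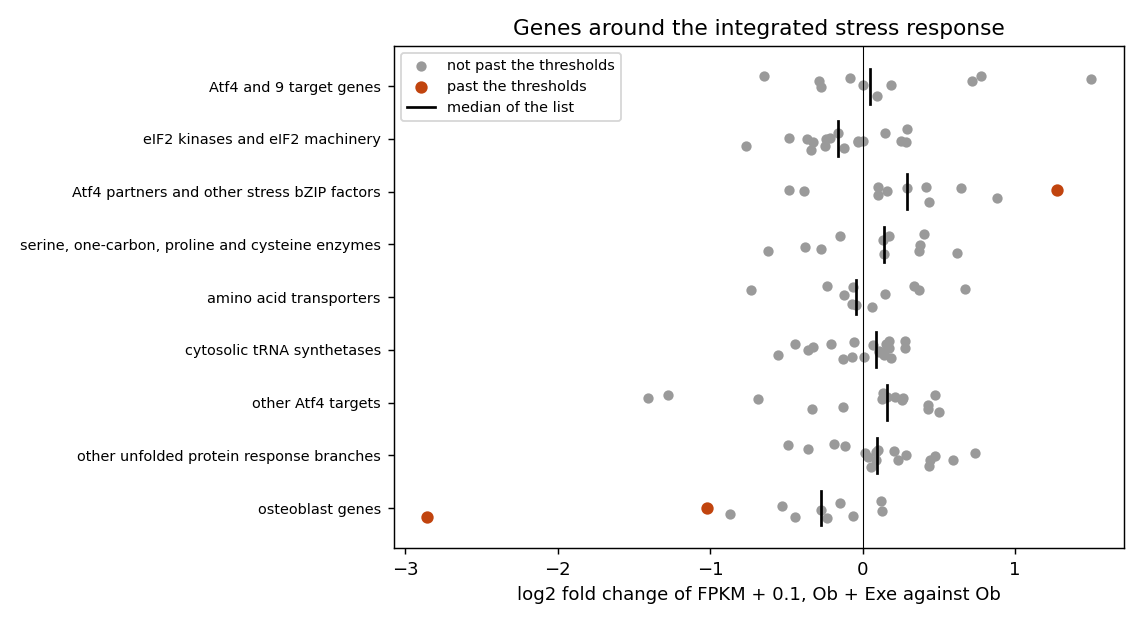
Log2 fold changes of FPKM + 0.1 (Ob + Exe against Ob) for the tested genes of each list. Each point is a gene, orange points passed the thresholds of the study, and black bars are the list medians. The orange points are Fos in the list of bZIP factors and Bglap2 and Col1a1 in the list of osteoblast genes.

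The upstream arm held 17 genes, for the eIF2 kinases, eIF2 and its exchange factor, and also Ppp1r15a, Ppp1r15b, Gcn1, Impact and Eif2a. In Ob + Exe, 13 of them had a log2 fold change below 0 and 4 above, with a median of -0.16 and none past the thresholds. The most abundant were Ppp1r15a and Ppp1r15b, the subunits that direct the phosphatase back to eIF2. Ppp1r15a had a scaled FPKM of 88.5 and 116 in Ob against 115 and 85.4 in Ob + Exe, and Ppp1r15b had 62.7 and 61.7 against 73.7 and 78.4. The heme-sensing kinase Eif2ak1 had 53.7 and 54.2 in Ob against 44.1 and 46.8 in Ob + Exe (log2 fold change -0.25, standard error 0.189).

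Among the 11 partners and other stress bZIP factors, 9 were above 0 and 2 below, with a median of 0.29 and Fos past the thresholds. Cebpb and Nfe2l2 were the most abundant of them, with log2 fold changes of 0.16 and 0.10. Of the 11 tested enzymes of serine, one-carbon, proline and cysteine metabolism, 7 were above 0 and 4 below, with a median of 0.14. The most abundant were Glul, glutamine synthetase (log2 fold change 0.13), and Mthfd2. Of the 11 amino acid transporters, 5 were above and 6 below 0, with a median of -0.04. Slc1a5, a glutamine carrier, was the most abundant with 112 and 203 in Ob against 216 and 129 in Ob + Exe, followed by Slc7a5 (log2 fold change -0.04).

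The 20 cytosolic tRNA synthetases, many of which are known Atf4 targets, had log2 fold changes from -0.56 to 0.28 with 12 above and 8 below 0 and a median of 0.08. Vars (-0.21) and Dars (0.28) were the most abundant. Of the 15 tested genes listed as other Atf4 targets, 10 were above and 5 below 0, with a median of 0.16, and the most abundant were Cebpb and Map1lc3b (0.13). The 18 genes of the other branches of the unfolded protein response had 14 above and 4 below 0 and a median of 0.09. Of these 18, 12 were lowest in Ob replicate 2, against 22.7% of all genes tested. Both Ob + Exe libraries were above both Ob libraries in 5 and below them in 1, against 14% and 18.7% of all genes. Hsp90b1 (0.03) and Hspa5 (0.28), the chaperones of the endoplasmic reticulum, were the most abundant. None of these 3 lists had a gene past the thresholds.

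Of 12 osteoblast genes, 11 were tested and 9 of these were below 0, with a median log2 fold change of -0.27. Of the 11, 2 passed the thresholds as lower, Bglap2 and Col1a1, against 2.73% of all genes tested. Bglap2, an osteocalcin gene, had 1.12 and 3.42 in Ob and is listed at 0 in Ob + Exe replicate 1 and at 0.717 in Ob + Exe replicate 2, and its reads can be hard to tell from those of its near-identical neighbour Bglap, which had 2.26 and 4.61 against 3.41 and 1.42. Col1a1, a chain of type I collagen, had 3.13 and 3.05 in Ob against 1.18 and 1.84 in Ob + Exe. With 1 library left out, Bglap2 and Col1a1 were each called in 1 of 4 fits, the one without Ob + Exe replicate 2, and their log2 fold changes ranged from -4.40 to -1.35 and from -1.33 to -0.72. Over the other 11 settings Bglap2 was called in 6 and Col1a1 in 7. The most abundant of the list were Sparc and Col1a2, with log2 fold changes of 0.13 and -0.07.

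Ob replicate 2, where Atf4 was highest, had the lowest sum of the 10 neutrophil markers (28156), with 9 of the 10 lowest there. Ob + Exe replicate 2, where Slc7a11, Chac1, Sesn2, Asns and Trib3 were highest, had the highest neutrophil sum (65560). Of the 10 markers, 6 were highest there and 3 in Ob replicate 1. Without S100a8 the neutrophil sums were 28312 and 16150 in Ob against 20379 and 29872 in Ob + Exe, so this lead was then small. The sum of the 10 erythroid markers (81737) was also highest in Ob + Exe replicate 2, with 6 of the 10 highest there, but this rests on Hbb-bs. Without that gene the erythroid sums were 40486 and 45862 in Ob against 36982 and 38428 in Ob + Exe. The sum of the 8 megakaryocyte and platelet markers was the lowest in this library (142, against 351 to 480 in the others), and all 8 of them were lowest there, among them the most abundant, Ppbp, at 48.0. Some lists also leaned to lower values in Ob + Exe. All 8 megakaryocyte markers had a log2 fold change below 0, as did 7 of the 8 B lineage markers. The groups were apart, with lower values after exercise, in 4 of the 8 megakaryocyte and 5 of the 8 B lineage markers. Over all genes tested this share was 18.7%. The megakaryocyte sum of Ob + Exe replicate 1 (391) lay between those of Ob (480 and 351). This sum thus did not separate the groups. In each list 2 genes passed the thresholds as lower, against 2.73% of all genes tested. They were Gp1ba and Gp5, and Cd79a and Igll1, which are named after their values were seen. The B lineage sums, led by Cd79b, were 200.3 and 209 in Ob against 161 and 125 in Ob + Exe. Plasma cell markers, led by Ighm, summed to between 613 and 1768, and monocyte and macrophage markers, led by Ly6c2, to between 455 and 518. The sums of adipocyte markers, led by Fabp4, were 80.4 and 84.2 in Ob against 130.1 and 107 in Ob + Exe, with Lep at 0 in all 4 libraries. Without Fabp4 they were 21.0 and 26.7 against 25.6 and 29.2. The sums of skeletal muscle markers, led by Mylpf, were 10.4 and 5.77 against 13.6 and 14.1. The part of the cell mixture in the values of the 10 genes was not tested.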

How the data were processed

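RNA-seq of whole tibial marrow was examined in 2 Ob and 2 Ob + Exe libraries, with 44310505 to 53038186 read equivalents each. According to the methods and the labels, the authors cleaned the reads with fastp, removed rRNA reads, aligned to GRCm38 with HISAT2, filtered with SAMtools and estimated the GENCODE vM25 transcripts in StringTie. Versions are not given in the sources used here. The authors deposited, per transcript, the read coverage (a signal not normalized for depth) and the FPKM. Transcript FPKM were summed to genes. A second identifier named Ddit3 was added to Ddit3, which left 55400 genes. Coverage cannot be turned back into whole reads (2.24% of read equivalents lay within 0.01 of a whole number), so limma was used here. The authors tested counts with DESeq2.

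Genes that averaged 0.1 FPKM or more were kept. Median-of-ratios factors (0.949 to 1.03) put the libraries on 1 scale. The test was limma (version 3.58.1, R 4.3.3) on log2(scaled FPKM + 0.1), moderated with an intensity trend (3.73 prior and 2 residual degrees of freedom). Fold changes on this scale understate the change of low genes. A gene was called where its unadjusted p was under 0.05 and its log2 fold change lay beyond 1, as in the study. Permutation tests were exact and two-sided. The test was checked on simulated data.

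The 10 genes, the lists and the tests were chosen with earlier results of these data known. Besides the 10 genes, the text names the called genes and the 2 most abundant genes of each pathway list, the most abundant gene of each marker list with any at 0 in all libraries, and the 3 genes nearest to Atf4. Named outside this rule are Eif2ak1, Slc3a2 and Bglap, the genes that overlap Atf5 or Ddit3, and the called megakaryocyte and B lineage markers. Alternatives were other filters, pseudocounts and scalings, limma voom on read equivalents (TMM factors), no intensity trend, a replicate block, protein-coding genes of GENCODE vM21 and leaving out each library. Promoters came from RefSeq. Other tools were Python 3.11.15, pandas 2.3.3, scipy 1.17.1 and matplotlib 3.10.9.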

Additional observations from a re-analysis of the deposited data

How the results depend on the processing

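Atf4 was below 0 on the log2 scale in all alternatives, from -0.35 to -0.27 over the settings that keep 4 libraries and from -0.52 to -0.04 with 1 library left out, and it never passed the thresholds. The number of genes called moved from 690 to 267 with a minimum mean FPKM of 1, 224 with a pseudocount of 1, 455 with limma voom, 1061 without the intensity trend and 364 among protein-coding genes, and ranged from 746 to 1924 with 1 library left out. Of the 10 genes, 1 was called in place of 0 with the replicate block, among protein-coding genes and with the crossed pairing (Slc7a11 each time), and 0 to 1 with 1 library left out (Slc7a11 or Ddit4). Ddit3 turned to -0.081 without scaling, -0.051 with quantile normalization and -0.032 with limma voom. With 1 library left out, where the lone library of a group is assumed to vary like the others, the log2 fold change ranged from -0.26 to 0.25 for Ddit3, -0.11 to 0.29 for Atf5, -0.68 to 0.50 for Sesn2 and -0.12 to 0.48 for Asns. The cause of these changes was not tested. Other filters, no intensity trend, the replicate block, the crossed pairing and the protein-coding subset leave each log2 fold change as in the main fit. For Atf4 it was -0.27 in each of these settings. Signs could not turn there, so these settings say nothing on direction. In all, 136 of the values recomputed for the 10 genes kept their direction and their side of the thresholds, 5 passed them and 9 turned their sign.

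No source says that the replicate numbers pair the mice, and the differences between replicates 1 and 2 of the 2 groups had a correlation of -0.106 across the genes tested and of -0.235 across those averaging 1 FPKM or more. With the number as a replicate block the calls numbered 776, and for 28 genes limma gave an adjusted p under 0.05, against 0 without it. With the crossed pairing, chosen after seeing the data, these counts were 782 and 6. Each group has 2 mice, which limits the precision of every mean, and Chac1 and Trib3 rest on as few as 62 and 116 read equivalents in a library.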

Other observations

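A second gene identifier named Ddit3, with a single short transcript on chromosome 10 from 127290829 to 127293753, is listed at 0 in 3 libraries and at an FPKM of 0.00656 in Ob + Exe replicate 2. The Ddit3 transcripts other than the main one, ENSMUST00000026475.14, differed between libraries. ENSMUST00000139091.1 held 5.95% and 7.55% of the gene's FPKM in Ob, 0% in Ob + Exe replicate 1 and 16.5% in Ob + Exe replicate 2. The Atf5 transcript that starts farther inside the gene, ENSMUST00000107893.8, held 10.9% in Ob replicate 2, 1.84% in Ob replicate 1 and 0% in both Ob + Exe libraries. These shares are estimates of StringTie from reads that the transcripts have in common.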
